A study of Mus musculus with 8 samples.

Results

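Lymphocyte genes were followed in tumours that 2 lines of mouse embryonic fibroblasts (MEFs) formed in nude mice, against the same lines in culture dishes. The set was chosen by gene symbol and held 31 T cell, B cell and natural killer (NK) cell genes of the 18217 symbols on the array. Of these, 30 had at least 1 probe, with 38 probes in all, and Cd8b1 had no matched probe. A gene could be tested when the scanner marked a probe as well above background in both replicates of any group, and 25 genes met this. The others with a probe, Cd28, Ctla4, Foxp3, Pax5 and Blk, were not well above background on both arrays of any group.

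The lines were wild type (WT) and Keap1–/–, here Keap1 null, and both names end in TR, letters whose meaning is not given in the sources used here. Keap1 encodes the adaptor that marks the transcription factor NRF2 for degradation. Dish cultures served as the control of each line, and the tumours (allografts) grew in nu/nu mice after injection of 10000000 WT or 3000000 Keap1 null cells. Tumours were harvested at a volume of 100 to 150 mm3, and 500 ng of total RNA was labelled for each of 8 arrays, 2 a group. Strain, age and treatment of the hosts are not given in the sources used here. Each genotype was 1 line, so genotype, line and number of injected cells cannot be told apart. The labels do not say whether the 2 arrays of a group came from separate cultures or animals, so p-values measure the spread between arrays, which may be technical.

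Nu/nu mice lack a thymus, the organ in which T cells mature, and therefore have very few T cells, while B cells and NK cells develop in the bone marrow and remain. NK cells kill target cells by releasing perforin and granzymes from granules, under control of activating and inhibitory surface receptors. T cells recognise antigen through a receptor that signals through the CD3 chains, and B cells through surface immunoglobulin that signals through CD79A and CD79B.

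The share of probes above background ran from 60.57% to 64.51% in dishes and from 69.74% to 74.74% in allografts, and no spot was saturated. Levels are given as log2 intensity minus the 75th percentile of the array, so that a level of 0 equals that percentile, and levels of different genes are not comparable because each probe binds with its own strength. The Keap1 probe gave 3.32 and 2.99 for WT dishes, 2.37 and 2.22 for Keap1 null dishes, 2.85 and 2.46 for WT allografts and 1.00 and 0.92 for Keap1 null allografts. It was lower in the Keap1 null line in both growth conditions, and the sources used here do not say whether it lies within the deletion. Replicate 1 of every group lay on 1 slide and replicate 2 on the other.

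In WT allografts 25 of the 30 genes with a probe were well above background on both arrays, against 15 in Keap1 null allografts and 8 in the dishes of each line. By gene, 9 were above background in a dish group, 7 in both allograft groups but no dish group, and 9 in WT allografts alone. Of the NK and cytotoxic genes all 11 were detected in WT allografts and 8 in Keap1 null allografts. T cell genes were detected for 6 of 9 in WT allografts and 3 of 9 in Keap1 null allografts, and those 3 were also detected in both dish groups. In bulk tissue, fewer cells of a type and less RNA per cell cannot be told apart.

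**Figure D1:**
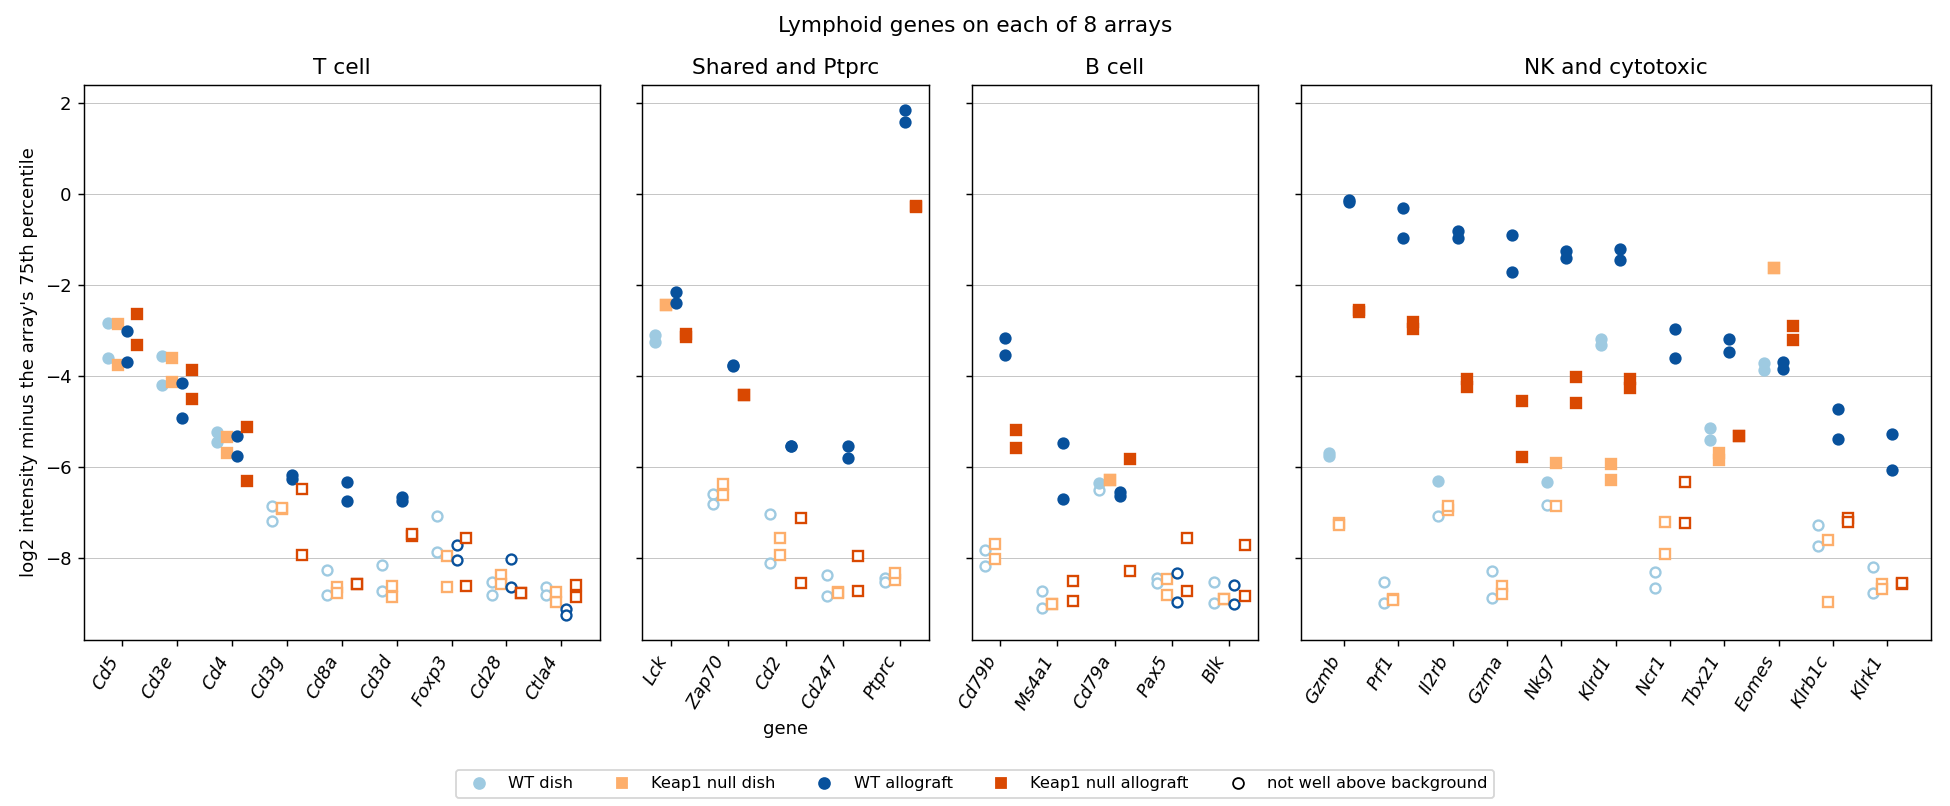
Level of each of the 30 genes with a probe on each array (y axis: log2 intensity minus the array's 75th percentile; x axis: gene), in 4 panels by gene class, with 2 points a group and open symbols where the probe was not well above background. The NK and cytotoxic genes are highest in WT allografts for 10 of 11 genes, Eomes being the exception, and the T cell genes Cd5, Cd3e and Cd4 sit at similar levels in all 4 groups.

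A gene was called when limma's test, fitted over all 8 arrays and all 22922 targets, gave a Benjamini-Hochberg adjusted p below 0.05. Of the 25 tested genes, 19 were higher and 0 lower in WT allografts than in WT dishes, where 35.8% of all targets were called higher and 32.2% lower, 68.1% in either direction. The gene with the lowest fitted difference, Cd3e at -0.67, did not pass (adjusted p = 0.173). In the Keap1 null line 11 were higher and 2 lower in allografts, against 35.8% and 29.1% of all targets, 64.9% in either direction. Between the allografts, 19 were lower and 1 was higher in the Keap1 null line, where 21.3% of all targets were called lower and 20.5% higher, 41.8% in either direction. The median difference of the 25 genes between allografts was -2.04 on the log2 scale, against 0.0042 for all targets. Of the 25, 9 met the detection rule through WT allografts alone: Cd3d, Cd3g, Cd8a, Cd247, Cd2, Ms4a1, Ncr1, Klrk1 and Klrb1c. The rule selected these for being high there, which favours lower values in the other groups. All but Cd3g were among the 19 lower between allografts and the 19 higher than in WT dishes. Both counts and the median therefore partly reflect the rule. Between the dishes 2 were higher and 2 lower, against 11.4% and 9.78% of all targets, 21.1% in either direction. Scaling each array to its median in place of its 75th percentile moved the median of all targets by -1.04 in WT allografts against dishes and by -0.84 in the Keap1 null line, and gave 17 higher with 4 lower and 9 higher with 8 lower. Between allografts it left 19 lower and 1 higher.

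**Figure D2:**
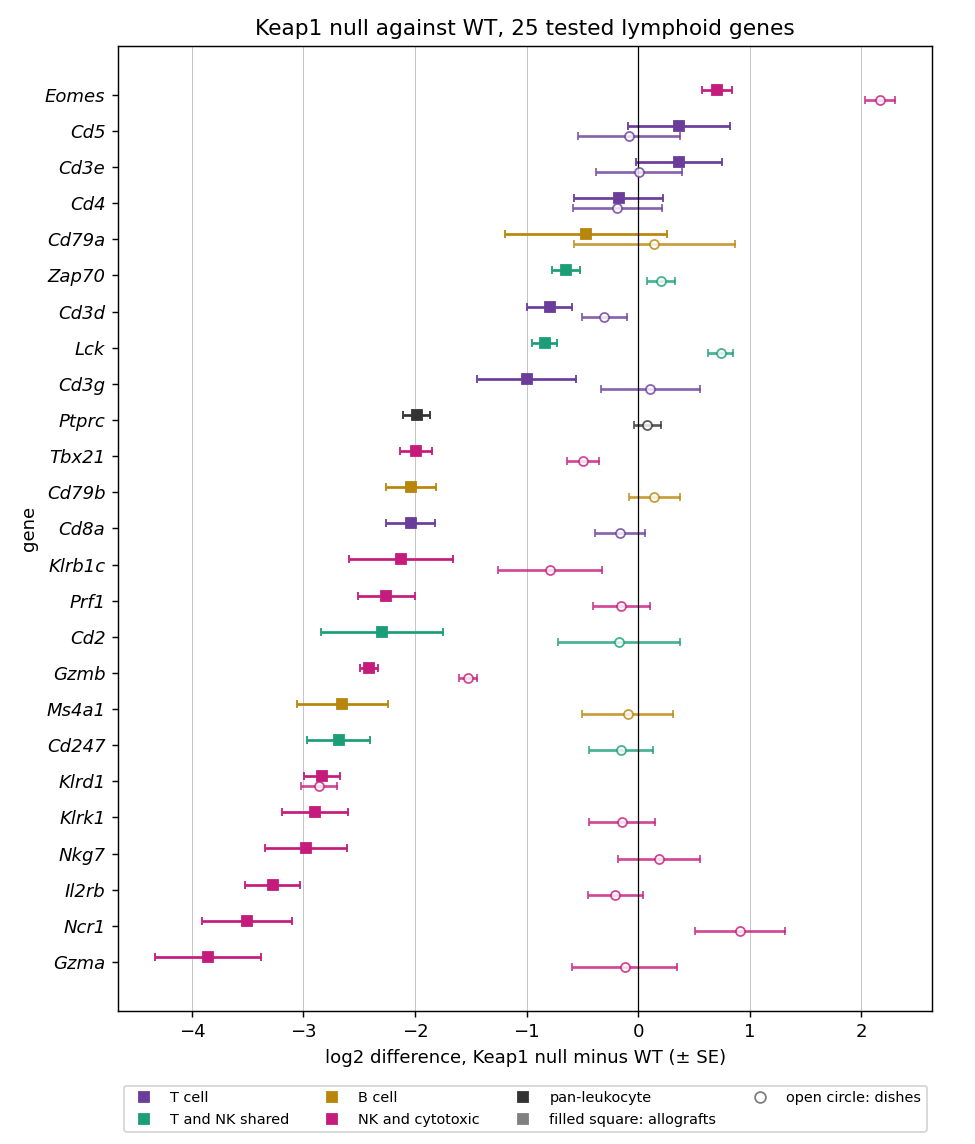
Difference between the lines for the 25 tested genes (x axis: log2 difference, Keap1 null minus WT, with its standard error from limma; y axis: gene), in allografts (filled squares) and dishes (open circles), coloured by class. In allografts Gzma lies lowest at -3.86 and Eomes highest at 0.71, while Klrd1 lies at -2.84 in allografts and -2.86 in dishes.

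Among T cell genes, the CD3 chains, which couple the T cell receptor to signalling, gave no common pattern. Cd3e gave -4.19 and -3.57 for WT dishes, -4.13 and -3.62 for Keap1 null dishes, -4.93 and -4.17 for WT allografts and -4.50 and -3.86 for Keap1 null allografts. The groups overlapped, and between allografts the difference was 0.37 with a 95% interval of -0.58 to 1.31. Cd4, the coreceptor of helper T cells, and Cd5, an inhibitory receptor of T cells and some B cells, also had overlapping groups, with 95% intervals between allografts of -1.16 to 0.81 for Cd4 and -0.75 to 1.49 for Cd5. Cd4 gave -5.46 and -5.23 for WT dishes, -5.70 and -5.35 for Keap1 null dishes, -5.76 and -5.32 for WT allografts and -6.31 and -5.12 for Keap1 null allografts. Cd5 gave -3.61 and -2.84 for WT dishes, -3.76 and -2.85 for Keap1 null dishes, -3.70 and -3.01 for WT allografts and -3.33 and -2.64 for Keap1 null allografts. For Cd3e, Cd4 and Cd5 the array on the slide of replicate 2 was the higher in all 4 groups, and no comparison of the 4 groups passed the test. Median scaling, which moved the median of all targets down in allografts, called all 3 lower in WT allografts than in WT dishes (-1.69, -1.22 and -1.16). With the replicate number, which is also the slide, as a block, Cd3e was called lower in both allografts than in dishes (adjusted p = 0.00158 in WT and 0.0262 in Keap1 null), and Cd3e and Cd5 were called higher in Keap1 null than in WT allografts (0.0221 and 0.0210). The block also made Cd5 a call between Keap1 null allografts and dishes (0.0230) and in the difference between the lines in that change (0.0392). These 3 probes gave signal in cultures labelled as fibroblasts, at levels that overlap those in tumours. The source of that signal was not tested.

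Cd8a, a chain of the coreceptor of cytotoxic T cells, was well above background in WT allografts alone. It read -6.33 and -6.77 there and between -8.82 and -8.28 on the other 6 arrays. WT allografts did not overlap with any other group, and the fitted difference from WT dishes was 2.00 ± 0.22 (SE, n = 2 arrays a group; limma adjusted p = 0.000431), which as a bound is at least 1.08-fold. Against Keap1 null allografts the bound was at least 1.14-fold (adjusted p = 0.000884). Its other 2 probes did not meet the detection rule, and with no detection rule another probe stood for Cd8a and neither call passed (adjusted p = 0.0706 and 0.754). Cd3d read -6.76 and -6.66 in WT allografts, -7.52 and -7.49 in Keap1 null allografts and between -8.87 and -8.16 in dishes. It was well above background in WT allografts alone and was called lower in Keap1 null allografts (-0.79 ± 0.20, adjusted p = 0.0230, at least 1.02-fold), a call that ended without any 1 of the 4 allograft arrays, where the adjusted p lay between 0.0717 and 0.101, and with quantile normalization (0.190). Cd3g read -6.17 and -6.28 in WT allografts against -7.95 and -6.50 in Keap1 null allografts, without a call (95% interval of the difference -2.09 to 0.09), but with a difference of -1.72 that passed when the second Keap1 null allograft was left out. Cd28, the costimulatory receptor of T cells, Ctla4, its inhibitory counterpart, and Foxp3, the factor of regulatory T cells, were not well above background on any array. Cd3d was also called 1.25 higher on the log2 scale in Keap1 null allografts than in their dishes (adjusted p = 0.00225), though above background in neither, so no fold is given, and the call ended with the normexp background (0.06, adjusted p = 0.775), median scaling (0.38, 0.0714) and quantile normalization (0.56, 0.302). With the normexp background in place of the scanner's own, the Cd3d and Cd8a differences between allografts turned to 0.15 and 0.0073, without a call.

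Of the 4 genes that T cells and NK cells share, all 4 were higher in WT allografts than in WT dishes and all 4 were lower in the Keap1 null than in the WT allografts. Among them Cd247 and Cd2 had met the detection rule through WT allografts alone. Zap70, a kinase that carries the signal of the T cell receptor and of NK receptors, read -3.79 and -3.75 in WT allografts, -4.41 and -4.42 in Keap1 null allografts and between -6.83 and -6.39 in dishes, where it was not well above background. Both allograft groups stood above the dishes without overlap, by at least 7.24-fold in WT (adjusted p = 1.11e-05) and at least 4.26-fold in Keap1 null (4.29e-05), and the Keap1 null allografts were 1.57-fold lower than the WT allografts (adjusted p = 0.00851). Cd247, the zeta chain that signals for the T cell receptor and several NK receptors, read -5.81 and -5.54 in WT allografts and between -8.85 and -7.98 on the other 6 arrays. It was at least 2.09-fold lower in the Keap1 null than in the WT allografts (adjusted p = 0.000819), and its other 2 probes were not tested. Between Keap1 null allografts and dishes Cd247 was not called with all arrays (0.253) but was without the first Keap1 null allograft (0.0386). Cd2, an adhesion receptor of T cells and NK cells, read -5.55 and -5.54 in WT allografts against -8.56 and -7.12 in Keap1 null allografts. It was at least 2.28-fold lower in the latter (adjusted p = 0.0184), a call that ended without either WT allograft array (0.0744 and 0.0759) or without the first Keap1 null allograft (0.0610). With the normexp background none of Zap70, Cd247 and Cd2 was called between allografts. The rise of Cd2 over WT dishes (adjusted p = 0.0169) likewise ended without either WT allograft array (0.0641 and 0.0651) or the first WT dish (0.0838). It also ended with the normexp background (0.15 on the log2 scale, 0.410), median scaling (1.01, 0.0934) and quantile normalization (1.03, 0.0522), against 2.04.

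Lck, the kinase that starts T cell receptor signalling, moved in opposite directions in the lines at the 75th percentile scaling. It gave -3.11 and -3.25 for WT dishes, -2.44 and -2.44 for Keap1 null dishes, -2.39 and -2.16 for WT allografts and -3.15 and -3.08 for Keap1 null allografts, well above background on all 8 arrays. It was 1.87-fold higher in allografts than in dishes of the WT line (adjusted p = 0.000685) and 1.60-fold lower in those of the Keap1 null line (adjusted p = 0.00254), and the difference between these changes was -1.58 ± 0.16 (adjusted p = 0.00100). The direction in WT depended on the scaling: the difference became -0.12 with median scaling (adjusted p = 0.451) and 0.18 with quantile normalization (0.235), without a call. In dishes Lck was 1.67-fold higher in the Keap1 null line (adjusted p = 0.00689), which did not pass without the first Keap1 null dish (0.0525) or the second (0.0507).

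Among B cell genes, Cd79b, the B cell receptor's signalling chain, was the only one detected in both allografts and in neither dish. It read -3.54 and -3.16 in WT allografts, -5.58 and -5.19 in Keap1 null allografts and between -8.19 and -7.71 in dishes, where it was not well above background. The 3 sets did not overlap: the allografts exceeded the dishes by at least 9.92-fold in WT (adjusted p = 1.84e-05) and at least 2.50-fold in Keap1 null (0.000218), and Keap1 null allografts were 4.10-fold lower than WT allografts (-2.04 ± 0.23, adjusted p = 0.000997). Ms4a1, which encodes the B cell surface protein CD20, read -6.71 and -5.47 in WT allografts and between -9.12 and -8.52 on the other 6 arrays. It was at least 1.57-fold lower in the Keap1 null than in the WT allografts (adjusted p = 0.00363), a call that the normexp background ended. Cd79a, the partner of Cd79b, read -6.56 and -6.64 in WT allografts against -8.29 and -5.84 in Keap1 null allografts, and the latter spread over the levels of all other arrays. No comparison of Cd79a passed, and its difference between allografts was -0.47 with all arrays. It was called in opposite directions when a Keap1 null allograft was left out, at 0.76 without the first and -1.69 without the second. Pax5, the B lineage transcription factor, and Blk, a B cell kinase, were not well above background on any array.

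NK and cytotoxic genes rose over dishes for 10 of 11 genes in the WT line and 7 of 11 in the Keap1 null line, and 10 of 11 were lower in the Keap1 null than in the WT allografts. Among them Ncr1, Klrk1 and Klrb1c had met the detection rule through WT allografts alone. Starts of 4 of these genes are printed because the genes moved together; they come from the RefSeq promoter table of GRCm38.p6, in the direction of transcription, 250 bases before to 50 after the start. The Gzma window is chr13:113100932-113101231 on the minus strand, Prf1 chr10:61297586-61297885, Nkg7 chr7:43436888-43437187 and Ncr1 chr7:4337465-4337764 on the plus strand. Capitals mark the core letters TGTGGT (or ACCACA on the other strand), which Runx factors bind, and GGTGTG (or CACACC), which T-box factors such as Tbx21 and Eomes bind, and matches of both may overlap.
Gzma: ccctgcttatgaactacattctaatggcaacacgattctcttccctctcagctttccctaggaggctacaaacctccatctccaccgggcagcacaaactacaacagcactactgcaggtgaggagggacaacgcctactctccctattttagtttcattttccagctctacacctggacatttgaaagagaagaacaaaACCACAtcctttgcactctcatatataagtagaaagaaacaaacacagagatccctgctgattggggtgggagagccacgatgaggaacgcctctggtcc
Prf1: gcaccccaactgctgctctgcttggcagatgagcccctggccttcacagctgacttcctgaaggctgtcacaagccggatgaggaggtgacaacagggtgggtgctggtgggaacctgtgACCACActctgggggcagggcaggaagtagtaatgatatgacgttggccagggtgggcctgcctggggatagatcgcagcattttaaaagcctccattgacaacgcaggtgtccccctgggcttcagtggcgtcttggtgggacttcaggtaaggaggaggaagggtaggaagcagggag
Nkg7: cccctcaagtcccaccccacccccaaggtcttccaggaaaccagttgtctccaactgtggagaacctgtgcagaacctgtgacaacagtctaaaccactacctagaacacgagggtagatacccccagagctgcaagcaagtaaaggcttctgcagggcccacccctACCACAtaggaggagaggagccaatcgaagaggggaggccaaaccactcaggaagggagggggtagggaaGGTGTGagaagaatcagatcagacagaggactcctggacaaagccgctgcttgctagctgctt
Ncr1: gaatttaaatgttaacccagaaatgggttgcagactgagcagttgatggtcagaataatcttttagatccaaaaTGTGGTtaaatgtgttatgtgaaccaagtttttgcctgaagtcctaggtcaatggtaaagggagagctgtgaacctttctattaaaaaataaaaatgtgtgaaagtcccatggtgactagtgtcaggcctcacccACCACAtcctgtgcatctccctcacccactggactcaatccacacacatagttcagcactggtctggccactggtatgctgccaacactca
The Runx letters begin at -50 from the start in Gzma, at -130 in Prf1, at -83 in Nkg7 and at -176 and -41 in Ncr1, and the T-box letters begin at -13 in Nkg7. The table held 22 of the 31 genes. The Runx letters were in the first listed window of 7 of 9 NK and cytotoxic genes, 0 of 7 T cell genes and 16.8% of all 32851 windows of this length. The T-box letters were in 1 of 9, 1 of 7 and 19.0%. A match describes these letters only and shows no binding.

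Among granule proteins, perforin, encoded by Prf1, forms the pore through which granzymes enter a target cell. Prf1 read -0.30 and -0.97 in WT allografts, -2.96 and -2.82 in Keap1 null allografts and between -9.00 and -8.54 in dishes, where it was not well above background. The groups did not overlap: Prf1 was at least 65.0-fold higher in WT allografts than in WT dishes (adjusted p = 3.93e-06), at least 14.1-fold higher in the Keap1 null line (1.33e-05), and 4.78-fold lower in the Keap1 null than in the WT allografts (-2.26 ± 0.25, adjusted p = 0.00103). Gzma, a granzyme that cleaves after basic residues, read -1.71 and -0.91 in WT allografts, -5.78 and -4.54 in Keap1 null allografts and between -8.89 and -8.29 in dishes. Gzma exceeded dishes by at least 40.9-fold in WT (adjusted p = 5.52e-05) and at least 2.92-fold in Keap1 null (0.00106; 0.0688 with the normexp background), and was 14.5-fold lower in the Keap1 null than in the WT allografts (-3.86 ± 0.48, adjusted p = 0.00150), the widest of the 25 tested genes. Gzmb, the granzyme that activates caspases, read -0.14 and -0.18 in WT allografts, -2.56 and -2.59 in Keap1 null allografts, -5.77 and -5.70 in WT dishes and -7.24 and -7.28 in Keap1 null dishes. All 4 groups stood apart, Gzmb was well above background in WT dishes too, and it was 47.6-fold higher in WT allografts than in WT dishes (adjusted p = 8.48e-07). It was lower in the Keap1 null line in both conditions, 5.33-fold in allografts (adjusted p = 1.70e-05) and at least 1.97-fold in dishes (0.000152), the latter without a call under the normexp background (0.110). Nkg7, a membrane protein of cytotoxic granules, read -1.41 and -1.25 in WT allografts, -4.60 and -4.02 in Keap1 null allografts and between -6.87 and -5.93 in dishes, where 1 of 2 arrays of each line was above background. It was 7.87-fold lower in the Keap1 null than in the WT allografts (adjusted p = 0.00151), and its second tested probe gave -3.58 against -2.98 for the first.

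Of the NK receptors, Ncr1, the activating receptor NKp46 and a defining NK marker, read -3.61 and -2.97 in WT allografts, -7.23 and -6.35 in Keap1 null allografts and between -8.67 and -7.23 in dishes. It was well above background in WT allografts alone, where it was at least 10.4-fold above WT dishes (adjusted p = 0.000106) and at least 9.57-fold above Keap1 null allografts (0.00113). Klrk1, which encodes the activating receptor NKG2D, read -6.07 and -5.29 in WT allografts and between -8.78 and -8.20 on the other 6 arrays. It too was detected in WT allografts alone, at least 2.08-fold above Keap1 null allografts (adjusted p = 0.000703). Klrb1c, which encodes the NK1.1 antigen in strains that carry it, read -5.38 and -4.73 in WT allografts against -7.14 and -7.23 in Keap1 null allografts. It was at least 3.20-fold lower in the latter (adjusted p = 0.0139), without a call when the second WT allograft (0.0750), the first Keap1 null allograft (0.0582) or the second (0.0598) was left out. The normexp background ended the calls of Klrk1 and Klrb1c between allografts. Between Keap1 null allografts and dishes Klrb1c did not pass (0.0790), but did with the replicate block (0.0338) and without the second Keap1 null dish (0.00808). Its other probe was not tested. Il2rb, the receptor chain through which NK cells receive interleukin 2 and interleukin 15, read -0.96 and -0.82 in WT allografts, -4.25 and -4.07 in Keap1 null allografts and between -7.09 and -6.33 in dishes. The groups of allografts did not overlap with each other or with dishes, and Il2rb was 9.68-fold lower in the Keap1 null than in the WT allografts (-3.27 ± 0.25, adjusted p = 0.000218). Against dishes it was 56.5-fold higher in WT (adjusted p = 1.13e-05) and at least 5.84-fold higher in Keap1 null (0.000205).

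Klrd1, which encodes CD94, the partner chain of NKG2 receptors, differed between the lines before they were grown as tumours. It gave -3.33 and -3.18 for WT dishes, -5.94 and -6.29 for Keap1 null dishes, -1.45 and -1.21 for WT allografts and -4.27 and -4.06 for Keap1 null allografts, well above background on all 8 arrays. The 4 groups stood apart. Klrd1 was 7.27-fold lower in the Keap1 null than in the WT dishes (adjusted p = 0.000187) and 7.14-fold lower in the Keap1 null than in the WT allografts (8.79e-05), and the difference between these differences was 0.03 (95% interval -0.54 to 0.60). It rose 3.79-fold with allograft growth in WT and 3.86-fold in Keap1 null. With the normexp background the difference between the rises became -0.73 (adjusted p = 0.0232).

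The T-box factors that direct NK cell development diverged. Tbx21, which encodes T-bet, gave -5.42 and -5.16 for WT dishes, -5.86 and -5.71 for Keap1 null dishes, -3.49 and -3.20 for WT allografts and -5.33 and -5.33 for Keap1 null allografts. WT allografts stood above all other groups, 3.86-fold above WT dishes (adjusted p = 9.16e-05) and 3.98-fold above Keap1 null allografts (0.000194). In the Keap1 null line Tbx21 was 1.37-fold higher in allografts than in dishes (adjusted p = 0.0348). That call ended when any 1 of its 4 arrays was left out (0.0686 to 0.159), and the rise turned to -0.41 with median scaling and -0.47 with quantile normalization. Between dishes Tbx21 was not called (0.0639), but was lower in Keap1 null with the replicate block (0.0229), median scaling (0.0179), quantile normalization (0.0236) and a filter requiring signal on all arrays (0.0426). Eomes gave -3.72 and -3.88 for WT dishes, -1.62 and -1.64 for Keap1 null dishes, -3.70 and -3.84 for WT allografts and -2.91 and -3.22 for Keap1 null allografts. Its highest level was in Keap1 null dishes, and WT dishes and WT allografts overlapped (0.03, 95% interval -0.30 to 0.36), a difference that turned to -0.99 with median scaling and -0.95 with quantile normalization. Eomes was 4.51-fold higher in Keap1 null than in WT dishes (adjusted p = 0.000240), 2.71-fold lower in Keap1 null allografts than in Keap1 null dishes (0.000230) and 1.63-fold higher in Keap1 null than in WT allografts (0.00789), the last without a call on the unscaled values (0.161).

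Ptprc, which encodes CD45, the phosphatase on all leukocytes, was not well above background in any dish. Its brightest probe read 1.59 and 1.85 in WT allografts, -0.25 and -0.28 in Keap1 null allografts and between -8.55 and -8.35 in dishes. Allografts exceeded dishes by at least 333-fold in WT (adjusted p = 6.67e-07) and at least 86.9-fold in Keap1 null (1.75e-06), and Keap1 null allografts were 3.96-fold lower than WT allografts (-1.98 ± 0.12, adjusted p = 0.000100). Its other 2 probes gave -1.95 and -1.42 for that difference.

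**Figure D3:**
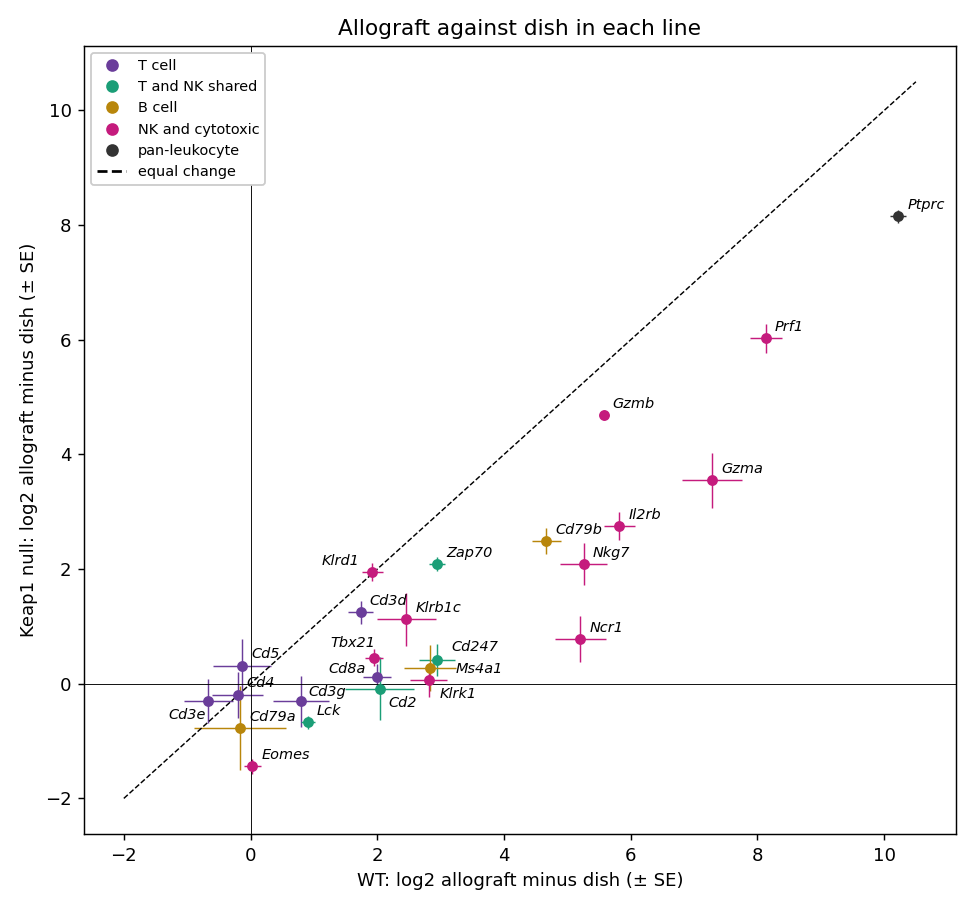
Allograft minus dish in the WT line (x axis) against the same in the Keap1 null line (y axis), as log2 differences with standard errors from limma, for the 25 tested genes coloured by class; the dashed line marks equal change and each axis has its own arrays. Klrd1 lies on the line at 1.92 and 1.95, Ncr1 far below it at 5.20 and 0.78, and Lck has 0.90 in WT, where median scaling turns it to -0.12, and -0.67 in Keap1 null; values of genes not above background in dishes are fitted values and no measure of fold.

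The rise with allograft growth itself differed between the lines for 16 of 25 genes, all smaller or more negative in Keap1 null, where 17% of all targets were called lower and 15.8% higher, 32.9% in either direction. By class these were 9 of 11 NK and cytotoxic genes, 3 of 4 shared genes, 2 of 3 B cell genes, 1 of 6 T cell genes and Ptprc. Among them Ncr1, Klrk1, Cd247, Ms4a1 and Cd8a had met the detection rule through WT allografts alone. Gzma gave -3.73 ± 0.67 (adjusted p = 0.00892) and Nkg7 -3.17 ± 0.52 (0.00635), with alternatives from -4.35 to -2.24 and from -3.64 to -2.06. Ncr1 gave -4.42 ± 0.57 (0.00258), but 3 of its 4 group means were not above background and its alternatives ran from -4.86 to -1.25, so these genes have no settled order.

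Because Ptprc was itself lower in Keap1 null allografts, each gene was also set against Ptprc on the same array, a comparison chosen after the values had been seen. Relative to Ptprc, 8 of the other 24 tested genes were lower in the Keap1 null than in the WT allografts, where 2.21% of all targets were lower and 91.3% higher, 93.5% in either direction. These 8 were Gzma, Gzmb, Nkg7, Ncr1, Klrd1, Klrk1, Il2rb and Cd247. Gzma was 3.66-fold lower relative to Ptprc (adjusted p = 0.00287), Il2rb 2.45-fold (0.00213) and Klrd1 1.80-fold (0.00487). Ncr1, Klrk1 and Cd247 rest on Keap1 null levels that were not well above background, so no fold is given for them. They had met the detection rule through WT allografts alone, which favours lower values in Keap1 null allografts. The count of 8 therefore partly reflects the rule. Prf1 (-0.27 ± 0.30 on the log2 scale, adjusted p = 0.405), Tbx21 (-0.01 ± 0.17, 0.969) and Cd79b (-0.05 ± 0.20, 0.811) were not called. Ptprc differed by -1.98 between allografts, so setting genes against it moved every gene up by that amount. The shares of all targets carry the same shift. Higher relative to Ptprc therefore means only a smaller drop than that of Ptprc, or none. Cd3e, Cd4, Cd5, Cd3d, Lck, Zap70 and Eomes were higher in this sense. Without that step Cd3e, Cd4 and Cd5 were not called between allografts, and Cd3d, Lck and Zap70 were called lower. The count fell to 5 without the first Keap1 null allograft, which ended the calls of Gzmb, Nkg7 and Cd247, and to 2, Gzma and Il2rb, with the normexp background, which turned Ncr1 to 0.64, Klrk1 to 1.56 and Cd247 to 1.70. Quantile normalization left 6, ending the calls of Klrk1 (-0.38, adjusted p = 0.321) and Cd247 (-0.31, 0.308). Against the second of the 3 Ptprc probes the count rose to 12, with Cd8a, Cd79b, Ms4a1 and Prf1. Without the first WT allograft Cd247, Gzmb and Nkg7 were not called either, without the second Cd247 and Nkg7 were not, and without the second Keap1 null allograft Gzmb was not. Leaving out a WT allograft also added genes called lower, Ms4a1 (-1.16) without the first and Prf1 (-0.74) without the second.

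Other genes of these cells were read from lists of further NK, T and B cell genes. Of 38 tested further NK genes, 24 rose and 3 fell in WT allografts against dishes, where 35.8% of all targets rose and 32.2% fell, and 22 were lower and 8 higher in Keap1 null than in WT allografts. Of all targets 21.3% were lower and 20.5% higher in that last comparison, so the share of further NK genes that were higher is near that of all targets, as is that of the further B cell genes. Xcl1, a chemokine that NK cells release, read -3.99 and -2.996 in WT allografts, was not well above background elsewhere and was at least 9.47-fold lower in Keap1 null allografts (adjusted p = 0.000483). Cd96, an inhibitory receptor of NK and T cells, was at least 3.94-fold lower (2.82e-05). Gzmc, a granzyme of activated cytotoxic cells, read 2.06 and 2.22 in WT allografts against -1.42 and -1.61 in Keap1 null allografts, at least 445-fold above WT dishes (adjusted p = 2.12e-06) and 12.6-fold apart between allografts (0.000184). Gzmd, Gzme, Gzmf and Gzmg are near-identical neighbours whose probes may share signal, and each was higher in WT allografts than in WT dishes and lower in the Keap1 null than in the WT allografts. Of 33 further T cell genes 14 were lower and 3 higher in Keap1 null allografts. Cd69, an early activation marker of T and NK cells, was at least 4.90-fold lower there (adjusted p = 0.000213), and Sh2d1a, an adaptor of T and NK cells, at least 3.52-fold (5.82e-05). Of 26 further B cell genes 13 were lower and 5 higher. Cd72, a B cell coreceptor, was 7.16-fold lower (adjusted p = 9.04e-05), and Cd24a, found on B cell precursors and many other cells, was 116-fold higher in allografts (6.52e-06) and 6.88-fold higher in dishes (0.000126) of the Keap1 null line.

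A further list held ligands that attract or activate NK and T cells. It also held the inhibitory ligand Cd274 and genes of MHC class I and its peptide supply. Of its 30 tested genes, 19 were lower and 4 higher in Keap1 null than in WT allografts, which is not a count of activating signals alone. Of all targets 21.3% were lower and 20.5% higher in that comparison. Il7, a cytokine of this list, ran the other way. It read -8.48 and -7.76 in WT allografts, where it was not well above background, against -4.24 and -4.58 in Keap1 null allografts. In Keap1 null dishes Il7 was already well above background, at -6.02 and -6.12, and in WT dishes it was not. Cxcl9, a chemokine for activated T and NK cells, read -2.80 and -2.04 in WT allografts and was not well above background elsewhere, at least 20.0-fold lower in Keap1 null allografts (adjusted p = 6.52e-05). Ccl5, which attracts T and NK cells, was well above background in all groups, at 3.72 and 3.51 in WT allografts against -0.17 and -0.08 in Keap1 null allografts, 13.4-fold apart (2.26e-05), and was already 3.72-fold lower in Keap1 null dishes (0.000468). Il15, the cytokine on which NK cells depend, was 3.47-fold lower in the Keap1 null than in the WT allografts (adjusted p = 0.00307), but was called in the other direction in dishes (2.02 higher on the log2 scale in Keap1 null, 0.00415), where it was above background on 1 of 4 arrays. Tap1, a chain of the transporter that supplies peptides for MHC class I, the ligand of inhibitory NK receptors, was 10.3-fold lower (4.25e-05).

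Markers of other host cells also differed between the allografts, and their part in the lymphoid differences was not tested. Summed over a list, with signal in multiples of each array's 75th percentile, NK and cytotoxic genes gave 3.57 to 3.72 in WT allografts and 0.635 to 0.685 in Keap1 null allografts. The sum of the further NK genes did not repeat this: it gave 37.8 to 38.4 and 35.7 to 38.1, which overlap, and already 29.9 to 30.7 in WT dishes. Most of the WT dish sum came from Ccl5, at 4.32 and 4.10. Most of the WT allograft sum came from Ccl5 and Tyrobp, the latter at 3.47 and 3.58. By gene, 22 of 38 were lower and 8 higher in Keap1 null than in WT allografts. Further T cell genes gave 47.6 to 52.6 and 33.9 to 35.8. Further B cell genes ran the other way in their sum, at 15.9 to 18.6 and 45.2 to 46.4, with 22.5 to 23.1 in Keap1 null dishes. Much of the Keap1 null allograft sum came from Cd24a, at 4.43 and 4.24 against -2.69 and -2.36 in WT allografts. Cd24a also read 3.04 and 3.09 in Keap1 null dishes. By gene, 13 of 26 were lower and 5 higher in Keap1 null than in WT allografts. T cell genes gave 0.164 to 0.237 and 0.168 to 0.277, ranges that overlap each other and those of both dishes. Most of the T cell sum came from Cd5, Cd3e and Cd4, which were as bright in dishes, and Cd3d, Cd3g and Cd8a, detected in WT allografts alone, added little to it. Macrophage genes gave 149 to 164 in WT and 89.5 to 90.3 in Keap1 null allografts, with 19 of 23 lower and 2 higher in Keap1 null. For this and the following lists, the shares of all targets were 21.3% lower and 20.5% higher. Genes of MHC class II and dendritic cells gave 15.04 to 16.2 and 4.38 to 4.49, with 9 of 13 lower and 2 higher. Neutrophil genes ran the other way in their sum, at 3.41 to 4.01 and 11.4 to 12.3, with 5 of 11 higher and 2 lower. Most of the Keap1 null sum came from Mmp9, at 2.91 and 3.00, which was also well above background in Keap1 null dishes. S100a8, S100a9 and Camp read higher in Keap1 null than in WT allografts, but Mmp8 (-4.82 and -4.56 against -2.68 and -2.13) and Csf3r (-4.02 and -3.70 against -2.56 and -2.17) read lower. Mast cell genes gave 3.36 to 3.55 and 12.8 to 18.8, with 9 of 10 higher. The macrophage marker Adgre1 was not well above background in dishes and was 10.4-fold lower in the Keap1 null than in the WT allografts (adjusted p = 5.67e-05), and Mcpt4, a mast cell protease, was 17.8-fold higher (0.000731).

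**Figure D4:**
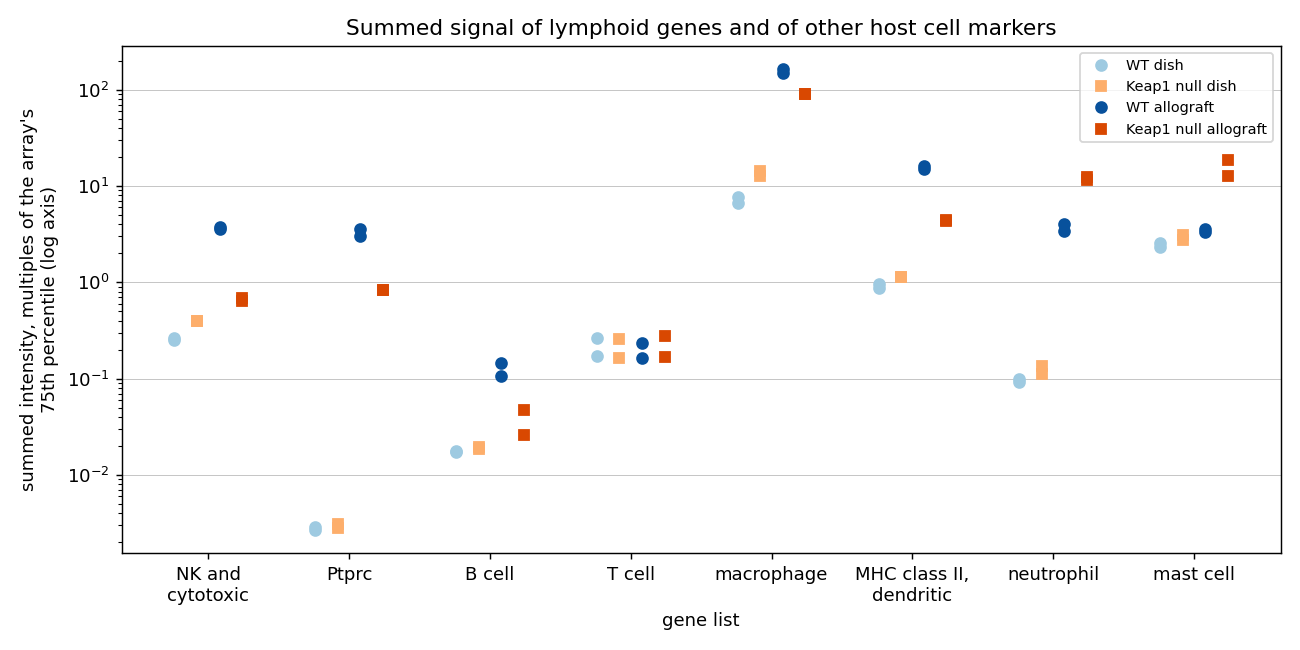
Summed signal of gene lists on each array (y axis, log scale: multiples of the array's 75th percentile; x axis: list), 2 points a group. NK and cytotoxic genes lie at 3.57 to 3.72 in WT allografts against 0.635 to 0.685 in Keap1 null allografts, T cell genes, whose sum is mostly Cd5, Cd3e and Cd4, overlap in all 4 groups, and mast cell genes are highest in Keap1 null allografts at 12.8 to 18.8. The lists of further NK, T and B cell genes are not drawn, and the sums of the further NK genes overlap between allografts.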

How the data were processed

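The deposited files are scanner output of 1-colour (Cy3) Agilent arrays with intensity per spot, written by Agilent Feature Extraction 10.7.3.1, which, per the file headers, had removed background and spatial trend and left arrays unscaled. A value table, also deposited, repeats this intensity to within 0.5%. With R 4.3.3, log2 processed signal minus each array's 75th percentile was taken without control spots, outlier spots were dropped and repeats of a probe averaged. Of 41174 probes, 26690 took a symbol from their RefSeq accession through GRCm38.p6, used for names only, since the array design is older. Tested were the 30358 probes detected in both replicates of any group, and the brightest tested probe on average stood for its gene.

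One limma 3.58.1 fit of 4 group means over 8 arrays gave 5 comparisons, with 4 residual and 1.83 prior degrees of freedom, and was tested on simulated data. Exact permutation was not used, because 2 against 2 gives no p under 0.33. Where a gene was well above background on no array of the dimmer group, the fold is a bound: the brighter mean against, per array, the higher of the dim signal and the lowest signal well above background. Members and lists were chosen with earlier results of these data known. All members are accounted for, and up to 4 called genes of a further list with the largest change could be named. The number of arrays limits the precision.

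Slide and replicate number coincide. Over 22922 targets, the differences between replicates correlated between groups by 0.247 to 0.429, so the numbers pair the arrays through the slide. The files used have no mean spot signal, so the normexp alternative, planned on it, used median spot and background signals, with an offset of 50.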

Additional observations from a re-analysis of the deposited data

Results flagged for a closer look

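For 16 genes the change from dish to allograft differed between the lines by the interaction term of the limma fit, given here as Keap1 null minus WT on the log2 scale. Among NK and cytotoxic genes the differences were -4.42 for Ncr1, -3.73 for Gzma, -3.17 for Nkg7, -3.07 for Il2rb, -2.75 for Klrk1, -2.11 for Prf1, -1.50 for Tbx21, -1.47 for Eomes and -0.89 for Gzmb. Eomes fell in the Keap1 null line, with a WT difference of 0.03. Among genes shared by T and NK cells they were -2.53 for Cd247, -1.58 for Lck and -0.85 for Zap70. Lck fell in Keap1 null, while its WT difference was 0.90 at the 75th percentile scaling, -0.12 with median scaling and 0.18 with quantile normalization. Among B cell genes they were -2.56 for Ms4a1 and -2.18 for Cd79b, and the others were -1.88 for Cd8a and -2.07 for Ptprc. The Zap70 call ended without the second Keap1 null dish (adjusted p = 0.0526) or the second WT allograft (0.0502). The Ms4a1 call ended without the second WT dish (0.0631), either Keap1 null dish (0.0586 and 0.0590) or the first Keap1 null allograft (0.0655). The normexp background ended the calls of Cd8a, Cd247, Zap70, Ms4a1 and Klrk1, and quantile normalization those of Cd8a and Zap70. Genes without a call gained one when 1 array was left out: Cd3d without the second WT dish (-0.78), Klrb1c without the first Keap1 null dish (-2.02), and Cd3g (-1.83) and Cd2 (-2.84) without the second Keap1 null allograft. Cd8a, Cd247, Ms4a1, Prf1, Gzma, Zap70, Ncr1, Klrk1, Cd79b and Ptprc were not well above background in dishes, so their differences are fitted values that depend on the floor of the array.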

How the results depend on the processing

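Of the called genes, 11 of 19 in WT allografts against dishes, 10 of 13 in the Keap1 null line, 11 of 20 between allografts, 2 of 4 between dishes and 11 of 16 in the interaction kept their call under every alternative run. Normexp background gave 12 calls in WT allografts against dishes and 12 between allografts, and 2 genes lower relative to Ptprc. It turned Cd3d and Cd8a to -0.18 and -0.072 against WT dishes and to 0.15 and 0.0073 between allografts, and gave interactions of 0.17 for Cd8a and -0.73 for Klrd1. Requiring signal on all arrays left 7 genes tested and 3, 4, 4 and 3 calls in WT, in Keap1 null, between allografts and in the interaction, since fewer genes were tested. Median scaling turned Lck to -0.12 and Eomes to -0.99 in WT, and Cd8a to -0.74, Klrk1 to -0.81 and Tbx21 to -0.41 in Keap1 null, against dishes. Quantile normalization gave -0.95 for Eomes in WT and -0.47 for Tbx21 in Keap1 null. The causes were not tested. With the replicate block, which is the slide block, calls numbered 20, 16, 22, 5 and 17 against 19, 13, 20, 4 and 16. Leaving out 1 array, with a lone array assumed to vary like the other groups, gave 18 to 19, 12 to 14, 17 to 20, 3 to 4 and 14 to 19 calls, and 5 to 7 relative to Ptprc. Without the first or second Keap1 null allograft, Cd79a gave 0.46 or -2.001 against Keap1 null dishes, 0.76 or -1.69 between allografts and 0.62 or -1.84 in the interaction. Low signal limits Cd3d, Cd8a, Cd247, Cd2, Ms4a1, Klrk1 and Klrb1c, which were above background in WT allografts alone.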

Other observations

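The 8 further NK genes that were higher in Keap1 null than in WT allografts were Nfil3, Il18rap, Klra3, Klra4, Klra5, Klra7, Itga2 and S1pr5, named after their values were seen. They are 8 of 38 tested, near the 20.5% of all targets that were higher, so their number is no result about NK genes. Nfil3, a transcription factor needed for NK cell development and used by many other cells, was 12.7-fold higher (limma adjusted p = 9.38e-06) and rose 11.1-fold from dish to allograft in the Keap1 null line (4.14e-06). The Klra genes encode Ly49 receptors, near-identical copies whose probes may share signal. Klra3, Klra4, Klra5 and Klra7 were well above background in dishes of both lines and were 1.79-fold, 2.28-fold, 3.46-fold and 3.13-fold higher in Keap1 null than in WT allografts (adjusted p = 0.0412, 0.00211, 0.00393 and 0.00128).

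Innate lymphoid cells share cytokines with T cells but lack their receptor. Of 10 tested genes of these cells, 6 were higher in Keap1 null than in WT allografts and 2 lower. The shares of all targets were 20.5% higher and 21.3% lower. Arg1 of this list was 8.26-fold lower (limma adjusted p = 7.71e-05). Arg1, Tnfsf11 and Il1rl1 were well above background in dishes of both lines too. Tnfsf11, the cytokine RANKL, read -4.59 and -4.41 in WT allografts against 0.97 and 0.76 in Keap1 null allografts, 41.2-fold higher (adjusted p = 9.38e-06). Il1rl1, the interleukin 33 receptor, was 19.7-fold higher in Keap1 null than in WT allografts (8.63e-06) and 2.36-fold higher in dishes (0.000810). Il7, the survival cytokine of T cells and innate lymphoid cells, which belongs to the list of ligands, was at least 7.17-fold higher in Keap1 null than in WT allografts (0.000176). Il7 was also well above background in Keap1 null dishes and not in WT dishes. Among mast cell genes, Tpsb2, a tryptase, was 12.8-fold higher (0.000611) and Hdc, the enzyme that makes histamine, 12.1-fold higher (9.56e-05).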
